A study of Mus musculus with 12 samples.

Results

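The 38 genes described here are the enzymes of glycolysis, the transporters that feed it and drain it, the sensors of the hypoxia-inducible factor (HIF) pathway and widely used HIF target genes. They were taken by symbol from a gene-level table of 45777 mouse genes, and all 38 were found. They comprised 16 glycolytic enzymes, 3 transporters of glucose or lactate, 3 regulators of flux, 4 HIF alpha subunits and oxygen-sensing hydroxylases, 3 mitochondrial hypoxia genes and 9 other hypoxia-responsive genes. The study asked what a hepatoma line and liver sinusoidal endothelial cells (LSECs) do to each other's transcripts when they share medium. Hepa1-6 cells are a line grown from a mouse hepatoma. LSECs, here primary cells, form the fenestrated wall of liver capillaries, and no strain, age or sex of the donor mice is given in the sources used here.

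There were 4 groups of 3 libraries. Co-cultured Hepa1-6 cells (100000 per insert with 3 μm pores) shared a well of a 12-well plate with LSECs (500000 on the bottom), and Hepa1-6 cells alone were kept without LSECs. Co-cultured LSECs came from the wells that also held Hepa1-6 cells, and LSECs alone were kept without them. All 4 groups were washed and then held for 24 h in DMEM with 2% serum. No oxygen tension, glucose or lactate measurement is given in the sources used here. A co-culture well held more cells in all than a well with 1 cell type, so that a response to the other cell type and a response to the number of cells cannot be told apart. The labels do not say whether replicates came from separate cultures or cell preparations, and the p-values measure the spread between these libraries only.

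Glycolysis turns glucose into pyruvate, which cells either oxidise in mitochondria or reduce to lactate and export. When oxygen is short, prolyl hydroxylases stop marking HIF alpha subunits for destruction, and the stabilised subunits raise transcription of most glycolytic enzymes, of glucose and lactate transporters and of genes that curb mitochondrial activity. HIF activity is set largely at the protein level, and several of its targets, the hydroxylase gene Egln3 among them, form feedback loops. Liver endothelium is known for high Epas1, and hepatoma cells for high glycolytic flux.

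Depth was 32761492 to 48870698 counts per library. The 16 endothelial markers summed to 13605 to 16621 CPM (counts scaled to library size) in co-cultured LSECs and 12031 to 15265 CPM in LSECs alone, against 67.2 to 70.5 CPM in co-cultured Hepa1-6 cells and 56.5 to 63.2 CPM in Hepa1-6 cells alone, with Cdh5, Tek, Erg, Lyve1, Clec4g and Robo4 at 0 in all 6 Hepa1-6 libraries. The 16 hepatoma and hepatocyte markers summed to 5048 to 5471 CPM in co-cultured Hepa1-6 cells, 4355 to 4470 CPM in Hepa1-6 cells alone, 32.6 to 53.6 CPM in co-cultured LSECs and 35.8 to 59.1 CPM in LSECs alone. All 16 macrophage markers reached 1 CPM in both LSEC groups and summed to 3518 to 4792 CPM in co-cultured LSECs and 2194 to 3424 CPM in LSECs alone, so the LSEC values below are those of a culture with macrophage transcripts in it. Replicate 1 stood apart from replicates 2 and 3 in both LSEC groups, and transcripts sorted by length. Genes under 1500 bases were higher in replicate 1 by a median of 0.48 (log2) in co-cultured LSECs and 0.57 in LSECs alone, and genes over 4500 bases were lower there, at -0.50 and -0.58. In Hepa1-6 cells the same medians lay between -0.012 and 0.021. LSEC results are therefore given as fitted without and with the replicate number as a block. For replicates 2 and 3 the values cannot show whether libraries of the same number belong together.

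In co-cultured Hepa1-6 cells, hypoxia targets and a part of glycolysis rose, by small folds. Of the 35 members with enough counts to be tested, 19 were higher than in Hepa1-6 cells alone at an adjusted p under 0.05 and 0 were lower, which is 54.3% of those tested, against 8.5% higher and 7.03% lower among all 14796 genes tested (edgeR). The folds of the 19 ran between 1.08 for Pkm and 1.83 for Stc1. The log2 fold change was above 0 for 33 of the 35, with a median of 0.15 over the members and -0.0043 over all genes. In 23 of the 35 all 3 co-culture values lay above all 3 values of cells alone, against 15.9% of all genes. Slc16a3 and Stc2 had no count in any of the 6 Hepa1-6 libraries, and Car9 stayed at or below 0.177 CPM, so these 3 were not tested. In the same cells the hepatoma and hepatocyte marker list also moved, with 7 of its 9 tested genes higher and 0 lower. Whether that shift has a part in the members' result was not tested.

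Of the 2 HIF alpha subunits, Epas1 rose in co-cultured Hepa1-6 cells and Hif1a did not pass. Hif1a (NCBI Gene 15251, chr12:73901324-73947554), which encodes the alpha subunit that drives most glycolytic targets, had 152, 151 and 151 CPM in co-cultured Hepa1-6 cells and 151, 146 and 149 CPM in Hepa1-6 cells alone. The lowest co-culture value, 151.0 CPM, was just above the highest value of cells alone, 150.5 CPM. The difference missed the threshold (log2 fold change 0.03 ± 0.03 SE, adjusted p = 0.587). Epas1 (NCBI Gene 13819, chr17:86753864-86833410), the alpha subunit best known from endothelium, had 35.9, 37.9 and 35.1 CPM in co-cultured Hepa1-6 cells against 28.1, 26.3 and 24.7 CPM in Hepa1-6 cells alone. Every co-culture value was above every value of cells alone, a 1.38-fold rise (log2 0.46 ± 0.06 SE, adjusted p = 6.73e-06). Per transcript length Epas1 remained the minor subunit there, at 14.0 ± 0.391 TPM (scaled to library size and transcript length) in co-cultured Hepa1-6 cells and 10.0 ± 0.610 TPM in Hepa1-6 cells alone, beside 69.0 ± 1.11 and 65.4 ± 1.71 TPM for Hif1a (SD, n = 3 each). Of the HIF prolyl hydroxylases, the 2 members rose slightly, Egln1 by 1.11-fold (adjusted p = 0.00778) and Egln3 by 1.18-fold (adjusted p = 0.0104). The third, Egln2, which is not a member, had 35.6, 35.1 and 36.0 CPM in co-cultured Hepa1-6 cells and 38.9, 37.7 and 40.1 CPM in Hepa1-6 cells alone, lower without overlap, and missed the threshold (log2 -0.13 ± 0.05 SE, adjusted p = 0.0816).

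Of the 16 glycolytic enzymes 7 rose in co-cultured Hepa1-6 cells. Pfkl (NCBI Gene 18641, chr10:77986947-78009807), the liver-type phosphofructokinase that catalyses the committed step, had the smallest p of them. It stood at 235, 225 and 221 CPM in co-cultured Hepa1-6 cells and 193, 182 and 195 CPM in Hepa1-6 cells alone, without overlap (1.19-fold, log2 0.25 ± 0.03 SE, adjusted p = 5.01e-06). Aldoa, the aldolase that splits the phosphorylated sugar, had 1398, 1398 and 1329.8 CPM in co-cultured Hepa1-6 cells and 1259, 1209.6 and 1216 CPM in Hepa1-6 cells alone (1.12-fold, adjusted p = 9.18e-05). The other 5 were Ldha, which makes lactate (1.11-fold), the ATP-forming kinase Pgk1 (1.11-fold), the triose isomerase Tpi1 (1.09-fold), the hexokinase Hk1 (1.09-fold) and the pyruvate kinase Pkm (1.08-fold), with adjusted p between 0.000607 and 0.00729. The other 9 enzymes did not pass. Their folds ran between 0.999 for Aldoc and 1.10 for Eno2, and Pfkm came closest (adjusted p = 0.0531). Hk2, the hexokinase typical of tumours, was at 176 ± 2.08 CPM in co-cultured Hepa1-6 cells and 176 ± 2.87 CPM in Hepa1-6 cells alone, a log2 fold change of 0.01 ± 0.03 (SE). As a share of all TPM, the 16 enzymes made up 1.33% ± 0.0145 of the transcripts of co-cultured Hepa1-6 cells and 1.23% ± 0.0202 in Hepa1-6 cells alone (SD, n = 3 each).

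Of the transporters tested in Hepa1-6 cells, Slc2a1, the main glucose importer, rose 1.12-fold to 204 ± 6.13 CPM in co-culture, against 182 ± 0.820 CPM alone (adjusted p = 0.00034). Slc2a3, a second glucose importer, had 3.71 ± 0.260 CPM in co-culture and 4.25 ± 0.953 CPM alone (adjusted p = 0.493). None of the 3 flux regulators passed in edgeR's test in Hepa1-6 cells. Pdk1, the kinase that switches off pyruvate dehydrogenase, had 85.0 ± 2.98 CPM in co-cultured Hepa1-6 cells and 84.9 ± 1.94 CPM in Hepa1-6 cells alone. Pfkfb3 and Pfkfb4, which make the activator of phosphofructokinase, had folds of 1.09 and 1.19 with adjusted p of 0.166 and 0.415.

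The 3 mitochondrial hypoxia genes rose in co-cultured Hepa1-6 cells, and Bnip3 moved most. Bnip3 (NCBI Gene 12176, chr7:138890836-138909506), a receptor that marks mitochondria for autophagy, had 54.8, 55.0 and 45.4 CPM in co-cultured Hepa1-6 cells and 30.6, 27.1 and 29.2 CPM in Hepa1-6 cells alone. Replicate 3 of the co-culture was the lowest of its group and still above all libraries of cells alone (1.78-fold, log2 0.84 ± 0.07 SE, adjusted p = 1.15e-07). Its paralog Bnip3l rose 1.15-fold (adjusted p = 0.00081). Of the summed TPM of this pair, Bnip3 held 53.2% ± 2.13 in co-cultured Hepa1-6 cells and 42.3% ± 1.64 in Hepa1-6 cells alone (SD, n = 3 each). Higd1a, a small protein of the inner mitochondrial membrane, rose 1.15-fold with an adjusted p of 0.0421, the highest among the 19.

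Of the 7 other hypoxia-responsive genes tested in Hepa1-6 cells 5 rose. Stc1 (NCBI Gene 20855, chr14:69029289-69041401), a secreted glycoprotein hormone, had the smallest p of all members. It had 158, 155 and 149.6 CPM in co-cultured Hepa1-6 cells and 87.5, 83.2 and 81.6 CPM in Hepa1-6 cells alone, a gap far wider than the spread within either group (log2 0.87 ± 0.03 SE, adjusted p = 8.99e-14). Ndrg1 (NCBI Gene 17988, chr15:66929318-66969641), a stress-responsive cytosolic protein, had 72.2, 71.2 and 64.7 CPM in co-cultured Hepa1-6 cells and 50.8, 49.0 and 49.2 CPM in Hepa1-6 cells alone (1.39-fold, adjusted p = 1.04e-07). P4ha2 and P4ha1 encode the catalytic subunits of the enzyme that hydroxylates collagen prolines. P4ha2 (NCBI Gene 18452, chr11:54100924-54131668) had 50.2, 52.4 and 47.4 CPM in co-cultured Hepa1-6 cells and 36.7, 40.8 and 39.0 CPM in Hepa1-6 cells alone (1.29-fold, adjusted p = 2.59e-05). P4ha1 (NCBI Gene 18451, chr10:59323197-59373304) had 114, 123 and 110.5 CPM in co-cultured Hepa1-6 cells and 97.6, 95.9 and 96.4 CPM in Hepa1-6 cells alone (1.20-fold, adjusted p = 2.99e-05). In all 4 of these genes the groups did not overlap. Kdm3a, a histone demethylase, rose 1.09-fold (adjusted p = 0.0106), while Ankrd37 at 3.27 ± 0.474 CPM in co-culture and 2.43 ± 0.726 CPM alone, and the Myc antagonist Mxi1 at 19.8 ± 1.39 and 17.7 ± 0.999 CPM, did not pass.

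**Figure D1:**
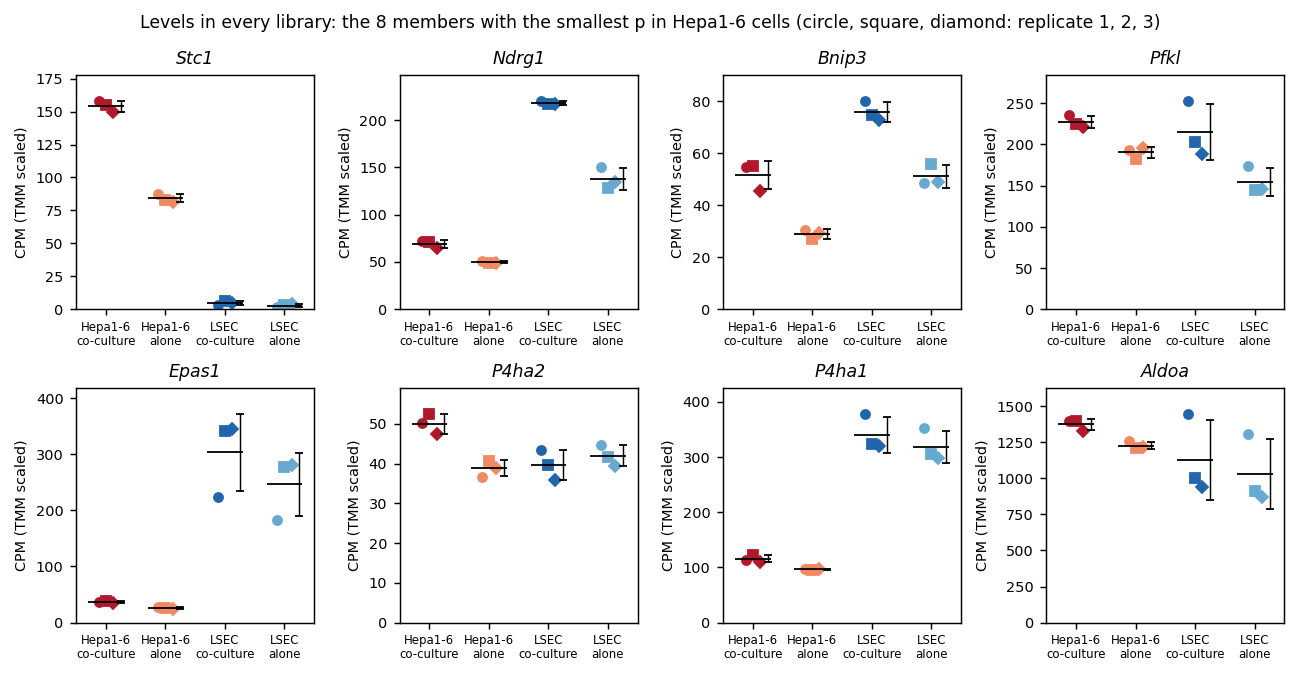
CPM in every library for the 8 members with the smallest p in Hepa1-6 cells, by group; the line is the mean, the bar 1 SD, and the marker shape gives the replicate. Stc1 lies between 149.6 and 158 CPM in co-cultured Hepa1-6 cells and between 81.6 and 87.5 CPM in Hepa1-6 cells alone, and is under 7 CPM in every LSEC library.

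The promoters of the members, whether they moved or not, were searched for the core of the hypoxia response element, to which HIF binds. A promoter window was given by RefSeq (GRCm38.p6) for 33 of the 38 members. Slc2a3, Epas1, Bnip3l, Ndrg1 and Stc1 had none, and all of these but Slc2a3 rose in co-cultured Hepa1-6 cells. Some windows lay wholly within the span of deposited transcripts and were searched all the same. They were those of Ldha, Gapdh, Hif1a, Aldoa, Slc16a3, Pfkp, Pfkfb4, Ankrd37 and Mxi1, and all but those of Aldoa and Mxi1 held a match. Some other windows overlapped that span in part. In the 250 bases before the start, ACGTG or GCGTG on either strand occurred in 26 of 33 members (78.8%), against 38.6% of 27025 mouse promoters. Members' windows were also richer in G and C, at a median of 62.8% against 52% over all promoters, and the match rate was not adjusted for that. A match was held by 11 of the 15 members with a window that rose in co-cultured Hepa1-6 cells, and by 12 of the 15 that were tested and did not pass. ACGTG lies within the E-box CACGTG, which 12.1% of members' and 6.05% of all promoters held, and GCGTG is also the core of the aryl hydrocarbon receptor element. The 4 windows below belong to the members with the smallest p in Hepa1-6 cells that hold a match. They are written 5′ to 3′ on the gene's strand, with matches on either strand in capitals (CACGT and CACGC are the same cores read from the other strand, and overlapping matches run together). Bnip3 lies on the minus strand (chr7:138909507-138909756), Pfkl on the minus strand (chr10:78009808-78010057), and P4ha2 (chr11:54100674-54100923) and P4ha1 (chr10:59323046-59323196) on the plus strand. The P4ha1 stretch is shown without the part that overlaps deposited transcripts.
Bnip3: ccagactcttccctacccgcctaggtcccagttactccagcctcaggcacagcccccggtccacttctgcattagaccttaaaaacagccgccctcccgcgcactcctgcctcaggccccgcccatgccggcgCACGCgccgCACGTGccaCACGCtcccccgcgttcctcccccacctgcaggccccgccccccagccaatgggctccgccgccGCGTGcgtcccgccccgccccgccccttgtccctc
Pfkl: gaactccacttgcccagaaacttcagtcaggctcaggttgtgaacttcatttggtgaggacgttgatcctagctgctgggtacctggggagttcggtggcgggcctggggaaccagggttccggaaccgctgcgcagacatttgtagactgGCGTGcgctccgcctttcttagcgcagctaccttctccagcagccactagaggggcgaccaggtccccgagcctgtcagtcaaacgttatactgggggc
P4ha2: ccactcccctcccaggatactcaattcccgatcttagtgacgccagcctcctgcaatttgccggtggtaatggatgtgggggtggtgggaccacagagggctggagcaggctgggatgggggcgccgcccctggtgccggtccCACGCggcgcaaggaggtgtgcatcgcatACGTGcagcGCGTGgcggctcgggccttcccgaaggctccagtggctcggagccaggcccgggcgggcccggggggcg
P4ha1: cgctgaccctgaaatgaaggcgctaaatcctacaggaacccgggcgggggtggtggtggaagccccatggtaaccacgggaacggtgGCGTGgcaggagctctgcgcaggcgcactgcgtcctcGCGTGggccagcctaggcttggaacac
Of the 4, Bnip3 held the most matches, 5 in its window, and Pfkl held 1. A match describes these letters only, and binding was not measured.

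The Hepa1-6 count differed between fits. The 6 Hepa1-6 libraries on their own gave 19 members, and a fit over all 12 libraries, in which 17346 genes were tested, gave 1 (Bnip3), with 41 genes called in all against 2298. Without the first library of each group 12 members passed, against 8.11% of all genes, and with the replicate block 20 passed, against 17.1%. Without the first libraries Hk1, Tpi1, Pkm, Egln1, Egln3, Higd1a and Kdm3a no longer passed (adjusted p between 0.0715 and 0.16).

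In co-cultured LSECs 14 members rose and 3 fell in the fit with the replicate block, and none passed without it. Those that rose were Hif1a, Epas1, Egln3, Slc16a3, Hk2, Pfkl, Tpi1, Gapdh, Pgam1, Pdk1, Bnip3, Bnip3l, Ndrg1 and Stc1, and those that fell were the glycolytic enzymes Hk1, Pfkp and Aldoc. Of the 9 other hypoxia-responsive genes, 2 rose and the other 7 did not pass. Without the block, 0 of 38 members passed in edgeR's test, against 3.09% of 15256 genes (2.18% higher and 0.911% lower), while 8 members had an unadjusted p under 0.05 (7 higher, 1 lower; 14.01% of all genes) and the DESeq2 Wald test called 7 (6 higher, 1 lower). The counts of 14 and 3 with the block stood against 16.7% higher and 16.6% lower among all genes. The share called, 44.7%, stood beside 33.3% of all genes. Without the first library of every group 15 were higher and 5 lower, against 36.4% of all genes called. The median log2 fold change over the 38 members was 0.11 with or without the block, and -0.027 over all genes without it. In 12 members all co-culture values lay above all values of LSECs alone, against 12.9% of all genes, and in 2 they lay below, against 8.64%. Marker lists moved in the same libraries. Of the 16 endothelial markers 1 was higher and 0 lower without the block, and 12 were higher and 2 lower with it, and their median log2 fold change without the block was 0.22. Of the macrophage markers 3 of 16 were higher and 2 lower (8 and 5 with the block). Neutrophil markers summed to 42.2 to 50.1 CPM in co-cultured LSECs and 7.08 to 7.76 CPM in LSECs alone, with 2 of the 3 tested higher and Retnlg and Ly6g at 0, and stellate cell markers to 132 to 155 CPM in co-cultured LSECs and 156 to 192 CPM in LSECs alone. In such bulk samples fewer cells of a type cannot be told apart from less RNA per cell. The part of these transcripts in the members' changes was not tested.

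Both HIF alpha subunits were higher in co-cultured LSECs in every same-numbered pair. Hif1a had 239.9, 508 and 489 CPM in co-cultured LSECs and 99.2, 338 and 350.5 CPM in LSECs alone, ratios of 2.42, 1.5 and 1.40. The groups overlapped, with replicate 1 far below the other libraries in both cultures. The log2 fold change was 0.63 ± 0.52 (SE) without the block (adjusted p = 0.766) and 0.74 ± 0.17 with it (adjusted p = 0.0312). Without the first libraries it was 0.52 (adjusted p = 5.58e-08). Epas1 had 224, 341 and 344 CPM in co-cultured LSECs and 182, 277 and 281 CPM in LSECs alone, and its ratios of 1.23, 1.23 and 1.23 were close to each other. Epas1 passed with the block (1.20-fold, adjusted p = 0.00165) and not in the unblocked fit of all libraries (0.803). It also passed without the first libraries (adjusted p = 1.62e-05). Hif1a and Epas1 transcripts average 4629 and 5346 bases, within the length range that was low in replicate 1. Egln3, a hydroxylase gene that HIF itself induces, had 23.0, 21.7 and 19.2 CPM in co-cultured LSECs and 11.0, 15.1 and 15.0 CPM in LSECs alone, without overlap (1.54-fold and adjusted p = 0.00565 with the block, 0.155 without). Egln1 stayed at 79.3 ± 8.30 CPM in co-cultured LSECs and 76.3 ± 8.90 CPM in LSECs alone (adjusted p = 0.776 with the block).

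Slc16a3 (NCBI Gene 80879, chr11:120948484-120959000), the lactate exporter of glycolytic cells, was read in LSECs and not in Hepa1-6 cells. It had 52.8, 39.8 and 30.8 CPM in co-cultured LSECs and 22.5, 19.2 and 20.4 CPM in LSECs alone, and every co-culture value was higher (1.91-fold and adjusted p = 0.000246 with the block, 0.102 without). A chosen floor of 3 counts in total over the 3 libraries, set in place of 0, is 0.0254 CPM in co-cultured Hepa1-6 cells. Slc16a1, a relative of Slc16a3 that is not a member, was read in both cells. It had 141 ± 2.96 CPM in co-cultured Hepa1-6 cells and 154 ± 2.40 CPM in Hepa1-6 cells alone. In LSECs it had 29.7 ± 0.647 CPM in co-culture and 30.4 ± 2.75 CPM alone. Slc2a1 had 145 ± 16.6 CPM in co-cultured LSECs and 124 ± 3.90 CPM in LSECs alone (adjusted p = 0.0602 with the block), and Slc2a3 had 2.18 ± 0.228 CPM in co-cultured LSECs and 3.05 ± 0.929 CPM in LSECs alone (adjusted p = 0.0947 with the block). Without the first libraries Slc2a3 was lower in co-culture (adjusted p = 0.026), and Slc2a1 did not pass (0.12).

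Of the 16 glycolytic enzymes, 5 rose and 3 fell in co-cultured LSECs with the block, which is 31.2% and 18.8% of them against 16.7% and 16.6% of all genes. Isozymes of the hexokinase and phosphofructokinase steps moved in opposite directions. Hk2 had 34.9, 42.8 and 37.8 CPM in co-cultured LSECs and 22.2, 26.4 and 28.1 CPM in LSECs alone, without overlap (1.47-fold, adjusted p = 0.00056 with the block and 0.13 without). Hk1 moved the other way, to 149.6 ± 10.5 CPM in co-cultured LSECs against 163 ± 18.3 CPM in LSECs alone, a log2 fold change of -0.15 ± 0.05 with the block (adjusted p = 0.035). Pfkl had 253, 202 and 189 CPM in co-cultured LSECs and 174, 144 and 146 CPM in LSECs alone (1.35-fold, adjusted p = 0.000181 with the block and 0.338 without). Pfkp, the platelet-type phosphofructokinase, had 22.3, 25.9 and 24.7 CPM in co-cultured LSECs and 28.0, 34.4 and 33.4 CPM in LSECs alone, lower in every pair (log2 -0.43 ± 0.07 SE with the block, adjusted p = 0.00136, and 0.207 without). Tpi1 had 343, 229 and 209 CPM in co-cultured LSECs and 239.9, 166 and 160.2 CPM in LSECs alone. Its groups overlapped through replicate 1, while its pair ratios of 1.43, 1.38 and 1.31 were close (1.34-fold, adjusted p = 0.000149 with the block and 0.633 without). Gapdh and Pgam1, the second with abundant retrogene reads, rose 1.10-fold and 1.12-fold with the block (adjusted p = 0.035 and 0.0291). Aldoc, a minor aldolase in these cells, had 0, 0.495 and 0.344 CPM in co-cultured LSECs and 1.00, 1.44 and 0.860 CPM in LSECs alone, on 0 to 18 counts per co-culture library and 30 to 51 counts per library of LSECs alone (adjusted p = 0.0328 with the block). The abundant enzymes Aldoa, Eno1, Pkm and Ldha had block folds of 1.07, 0.988, 0.986 and 1.07, and none of these 4 passed with the block. Without the first libraries Ldha was higher (adjusted p = 0.0484), and Aldoa, Eno1 and Pkm did not pass. The 16 enzymes made up 0.796% ± 0.0457 of TPM in co-cultured LSECs and 0.739% ± 0.0174 in LSECs alone (SD, n = 3 each).

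Pdk1 was the flux regulator that moved in LSECs, with 48.9, 62.4 and 58.4 CPM in co-cultured LSECs and 30.4, 40.2 and 39.3 CPM in LSECs alone. Each pair rose by a like ratio, 1.61, 1.55 and 1.49 (1.51-fold, adjusted p = 8.96e-05 with the block and 0.147 without). Pfkfb3 had 69.6 ± 13.4 CPM in co-cultured LSECs and 81.0 ± 26.5 CPM in LSECs alone, and passed only without the first libraries (adjusted p = 6.52e-05, against 0.0705 with the block). Bnip3 had 80.3, 74.9 and 72.8 CPM in co-cultured LSECs and 48.5, 56.0 and 48.8 CPM in LSECs alone, without overlap (1.45-fold, adjusted p = 0.000286 with the block and 0.0949 without). Bnip3l had 205, 227 and 237 CPM in co-cultured LSECs and 158, 185 and 191 CPM in LSECs alone (1.23-fold, adjusted p = 0.000995 with the block and 0.402 without). Ndrg1 had the smallest p of the members in LSECs in both fits. It had 221, 217 and 217 CPM in co-cultured LSECs and 151, 128 and 134 CPM in LSECs alone, a gap several times the spread (1.55-fold, adjusted p = 4.43e-05 with the block and 0.0648 without). Stc1 was scarce in LSECs, at 4.67 ± 1.52 CPM in co-culture and 2.81 ± 0.862 CPM alone, and rose 1.61-fold with the block (adjusted p = 0.0154). The collagen hydroxylases P4ha1 and P4ha2 had block folds of 1.04 and 0.921 in LSECs and did not pass.

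**Figure D2:**
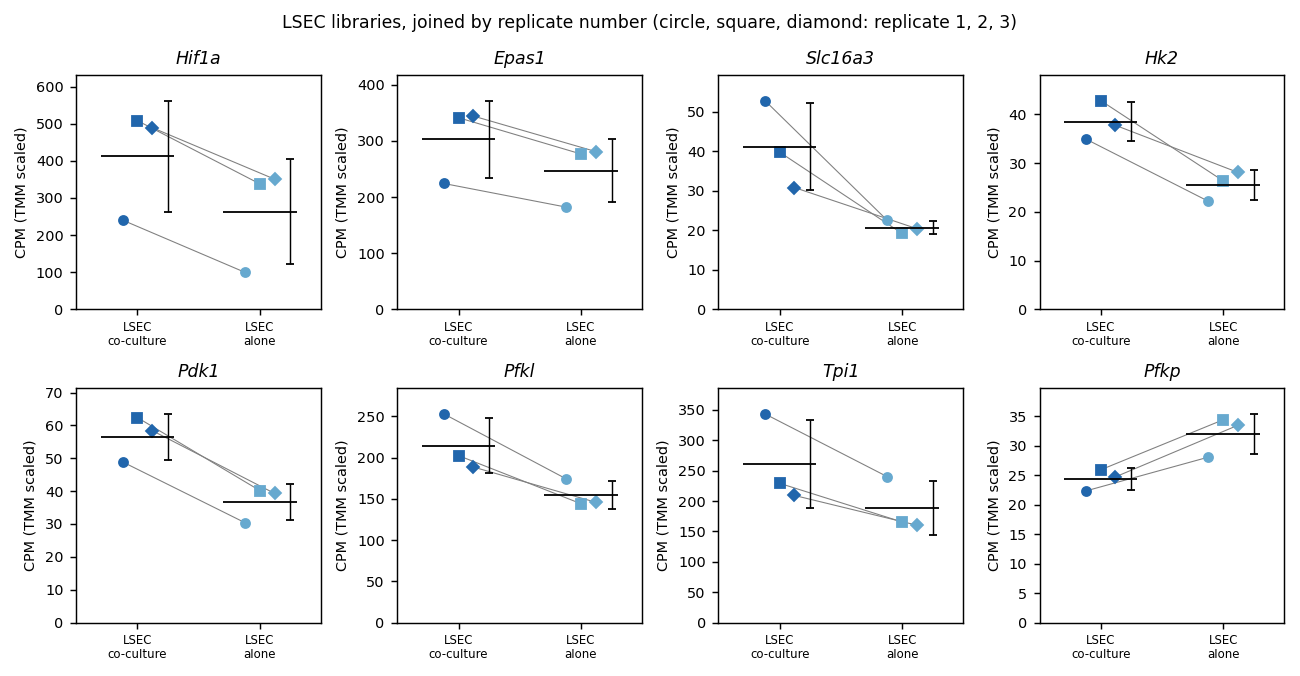
CPM of 8 members in LSEC libraries, co-culture on the left of each panel and LSECs alone on the right, with lines joining libraries of the same replicate number, the mean as a horizontal line and 1 SD as a bar. For Hif1a, Epas1 and Tpi1 the groups overlap while each line runs the same way; Pfkp alone is lower in co-culture, at 22.3 to 25.9 CPM against 28 to 34.4 CPM in LSECs alone.

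**Figure D3:**
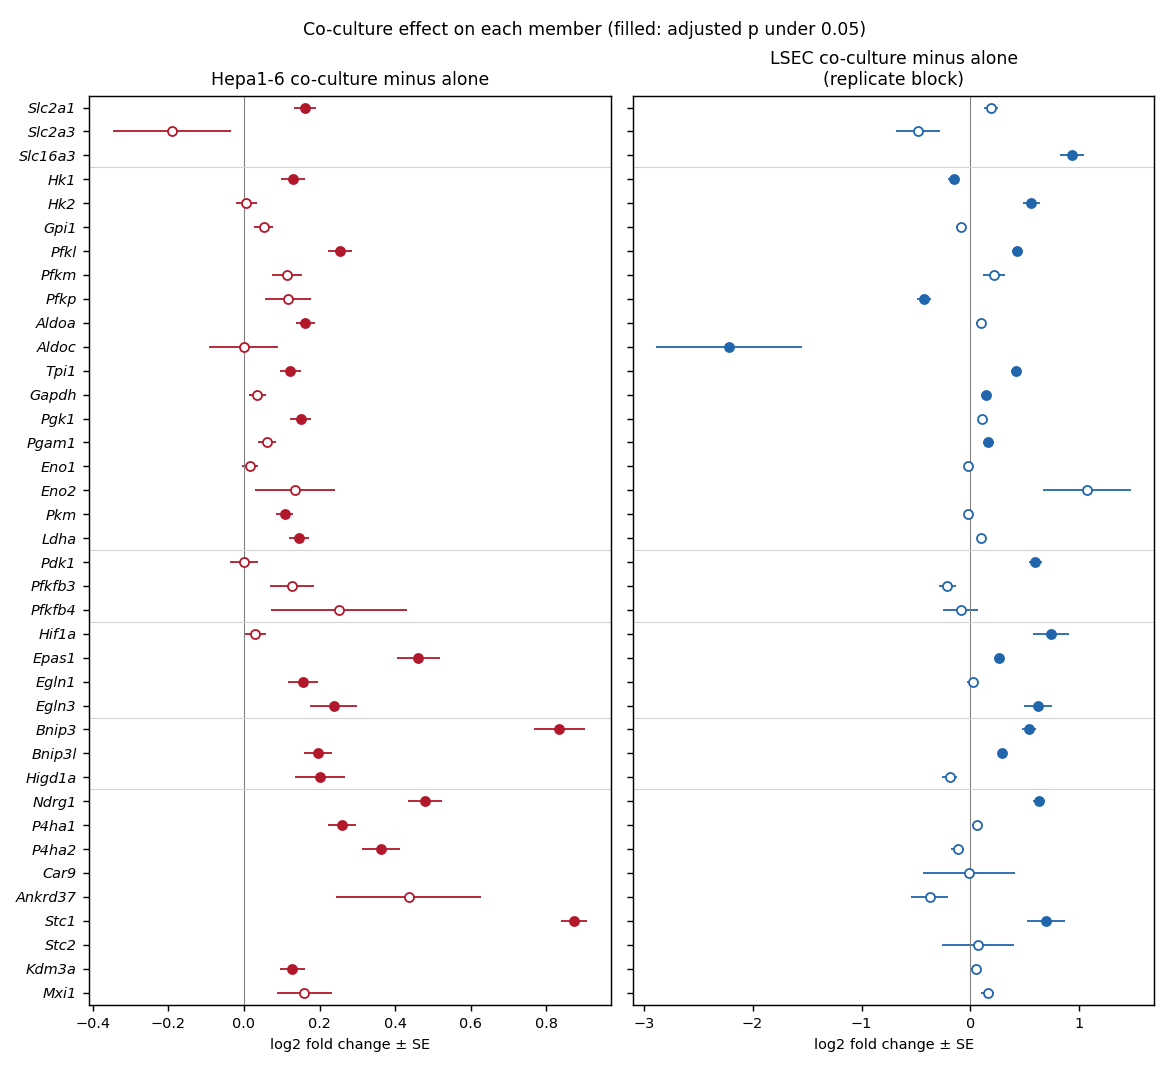
Log2 fold change (± SE) of every tested member in co-culture over cells alone, in Hepa1-6 cells on the left and in LSECs with the replicate block on the right, grouped by role; filled points have an adjusted p under 0.05. In Hepa1-6 cells 19 points are filled, all to the right of 0, and in LSECs 17 are filled, 14 of them to the right; the horizontal scales differ.

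Across both cells, 8 members rose in Hepa1-6 cells and, with the block, in LSECs. That is 8 of the 19 that rose in Hepa1-6 cells, 8 of the 14 that rose in LSECs and 22.9% of the 35 members tested in both, against 2.7% of the 12742 genes tested in both. They were the phosphofructokinase Pfkl, the isomerase Tpi1, the HIF subunit Epas1, the hydroxylase Egln3, the mitophagy receptors Bnip3 and Bnip3l, Ndrg1 and Stc1. Without the first libraries, Tpi1 and Egln3 did not pass in Hepa1-6 cells (adjusted p = 0.0715 and 0.118). Members were called higher more often than all genes in each cell taken on its own, which raises such an overlap. The shares were 54.3% against 8.5% in Hepa1-6 cells, and 36.8% against 16.7% in LSECs with the block. Whether the overlap goes beyond what those shares give was not tested. The hexokinase Hk1 was higher in Hepa1-6 cells and, with the block, lower in LSECs, as were 1.33% of all genes tested in both. Its rise in Hepa1-6 cells did not pass without the first libraries (adjusted p = 0.137). The Hepa1-6 and LSEC comparisons share no library, although co-cultured cells of both types came from shared wells. Whether a co-culture effect differed between the cells was tested over all 12 libraries. Without the block 0 of 38 members passed in edgeR's test, against 2.35% of 17346 genes (1.4% with a higher and 0.951% with a lower effect in LSECs), 5 had an unadjusted p under 0.05 (11.55% of all genes) and DESeq2 called 5, 2 of them higher in LSECs. With the block 11 differed, 5 with a higher and 6 with a lower effect in LSECs, against 17.3% of all genes (9.36% and 7.98%), and without the first libraries 12 differed, against 15.5%. Hk2 and Pdk1 changed more in LSECs than in Hepa1-6 cells, by log2 0.59 ± 0.07 and 0.63 ± 0.06 (SE; adjusted p = 0.000478 and 8.43e-05 with the block, 0.0818 and 0.118 without). Hif1a did so by 0.74 ± 0.19 (adjusted p = 0.0351 with the block and 0.902 without). P4ha2 changed less in LSECs, by -0.45 ± 0.07 (adjusted p = 0.00263 with the block and 0.175 without). P4ha2 had 43.5, 39.7 and 35.8 CPM in co-cultured LSECs and 44.7, 41.6 and 39.5 CPM in LSECs alone, groups that overlapped. Pfkp differed by -0.51 ± 0.09 (adjusted p = 0.00331 with the block and 0.154 without), with 35.3, 33.4 and 29.8 CPM in co-cultured Hepa1-6 cells and 29.6, 31.5 and 29.4 CPM in Hepa1-6 cells alone. For Egln3, with 32.8, 32.2 and 29.0 CPM in co-cultured Hepa1-6 cells and 26.6, 27.8 and 25.2 CPM in Hepa1-6 cells alone, the difference between the cells missed the threshold in both fits (adjusted p = 0.103 and 0.457).

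**Figure D4:**
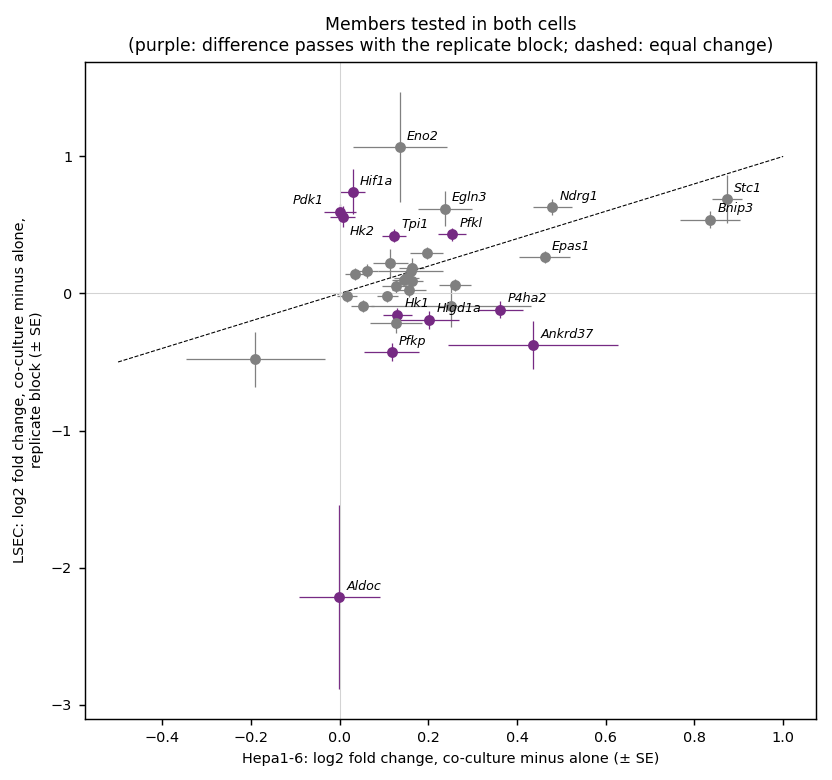
Log2 fold change in co-culture over cells alone for each member tested in both cells, Hepa1-6 cells on the horizontal axis and LSECs with the replicate block on the vertical axis, with SE bars; purple points differ between the cells with the block and the dashed line marks an equal change. Hk2, Pdk1 and Hif1a lie near 0 in Hepa1-6 cells and above 0.5 in LSECs, while Bnip3 and Stc1 lie far to the right and above 0.

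Compared alone, LSECs had less of 8 glycolytic enzymes and more of several hypoxia-responsive genes. LSECs alone differed from Hepa1-6 cells alone in 24 of 38 members, 12 higher and 12 lower, against 70% of 16411 genes (37.2% higher and 32.8% lower), so a difference in a member is no more frequent than in genes at large. No glycolytic enzyme was higher in LSECs and 8 of 16 were lower in edgeR's test, among them Hk2 (-2.76 log2), Tpi1 (-2.41), Gapdh (-1.55), Pgam1 (-1.38) and Ldha (-0.98), with adjusted p between 7.51e-06 and 0.00155. Without the first libraries 12 of the 16 enzymes were lower in LSECs, the same 8 with Pfkl (adjusted p = 6.16e-06), Aldoa (1.72e-07), Eno1 (2.43e-09) and Pgk1 (0.0386), and Hk1 was higher (adjusted p = 2.07e-05, against 0.0939 with all), in a fit that called 85.3% of all genes. Epas1 was 9.49-fold higher in LSECs, P4ha1 3.35-fold, Ndrg1 2.81-fold, Mxi1 2.70-fold and Bnip3l 2.48-fold (adjusted p between 2.33e-05 and 8.19e-05). Stc1 was 29.7-fold lower in LSECs alone, at 2.81 ± 0.862 CPM, against 84.1 ± 3.04 CPM in Hepa1-6 cells alone (adjusted p = 1.39e-05). Slc16a3 and Stc2, a relative of Stc1, had no count in Hepa1-6 cells alone. Set against a chosen floor of 3 counts over those 3 libraries, Slc16a3 was 873-fold higher in LSECs alone and Stc2 32.0-fold.

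On the length-corrected TPM scale, Hk2 made up 16.3% ± 0.670 of hexokinase (Hk1 and Hk2 summed) in co-cultured LSECs and 10.5% ± 0.273 in LSECs alone, against 46.8% ± 0.824 in co-cultured Hepa1-6 cells and 48.8% ± 0.284 in Hepa1-6 cells alone (SD, n = 3 each). Hk2 thus took a larger share of this sum in co-cultured LSECs than in LSECs alone, in libraries that did not overlap. Its share was slightly smaller in co-cultured than in other Hepa1-6 cells. Hk3, which is not a member, was left out of the sum. It had 26.7 CPM in co-cultured LSECs and 42.2 CPM in LSECs alone, beside 38.5 and 25.5 CPM for Hk2. Pfkl made up 84.0% ± 1.64 of phosphofructokinase in co-cultured LSECs and 78.6% ± 1.58 in LSECs alone, and 63.3% ± 1.05 in co-cultured Hepa1-6 cells and 61.6% ± 0.931 in Hepa1-6 cells alone. The muscle-type Pfkm supplied 27.4% ± 0.655 in co-cultured Hepa1-6 cells and 29.5% ± 0.667 in Hepa1-6 cells alone, and under 10% in both LSEC groups. Among the members, Aldoa, Eno1 and Slc2a1 each outweighed their paralog in all 4 groups. Aldoc supplied at most 0.441% of the summed Aldoa and Aldoc TPM, Eno2 at most 0.402% of the summed Eno1 and Eno2 TPM and Slc2a3 at most 1.46% of the summed Slc2a1 and Slc2a3 TPM, as group means. In absolute TPM, Gapdh led in Hepa1-6 cells, at 3509 TPM in co-culture and 3386 TPM alone, and Aldoa led in LSECs, at 1481 TPM in co-culture and 1369 TPM alone (means, n = 3).

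**Figure D5:**
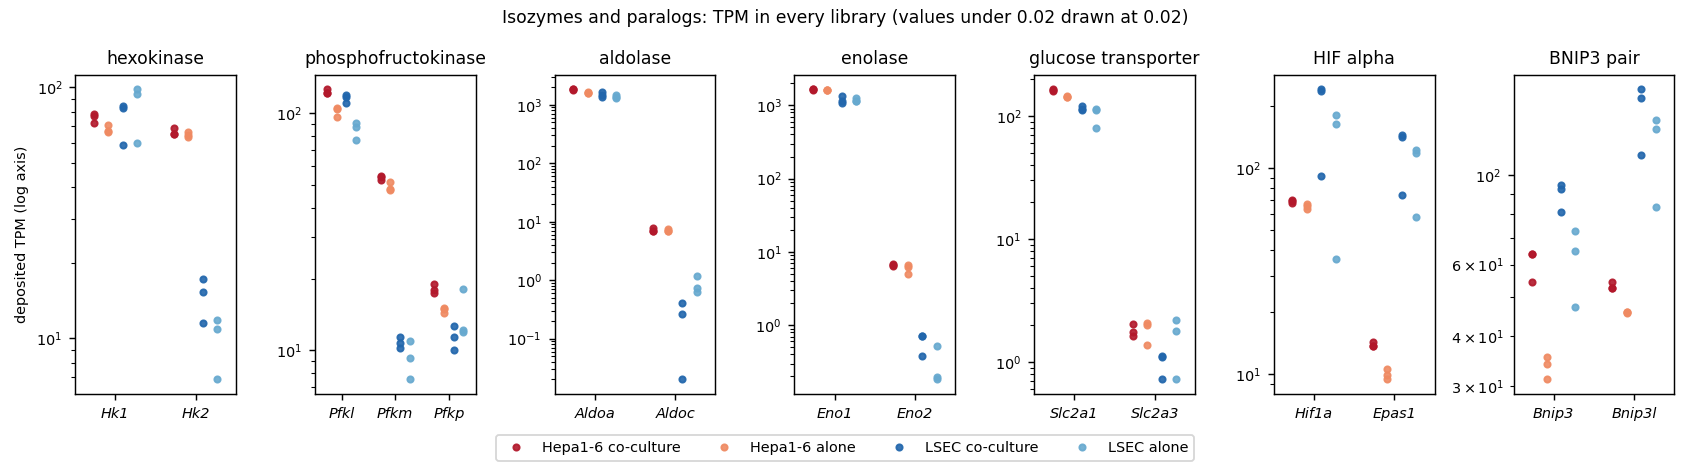
Deposited TPM (log axis) of isozymes and paralogs in every library, with the 4 groups side by side within each gene. Hk2 lies between 63 and 70 TPM in Hepa1-6 cells and below 18 TPM in LSECs, while Hk1 lies between 58.8 and 98.3 TPM across all 12 libraries.

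The rest of the pathway was followed in 78 further glycolysis and hypoxia genes. In Hepa1-6 cells 15 of the 60 tested were higher in co-culture (25%, against 8.5% of all genes) and 5 lower (against 7.03% of all genes). Bhlhe40, a repressor of transcription, rose 1.32-fold to 185 ± 9.32 CPM, against 139.9 ± 1.29 CPM alone. Pfkfb2, Vldlr and the oxidase of the endoplasmic reticulum Ero1l rose 1.36-fold, 1.30-fold and 1.18-fold (adjusted p of 0.00034 or less). In LSECs 2 of 66 were higher and 1 lower without the block, and 13 higher and 12 lower with it (19.7% and 18.2%, close to the 16.7% and 16.6% of all genes). Lox, which cross-links collagen, had 86.7, 119 and 119 CPM in co-cultured LSECs and 6.37, 12.4 and 14.7 CPM in LSECs alone (9.52-fold, adjusted p = 0.00665), and no count in Hepa1-6 cells. Hmox1, which degrades haem, fell to 846, 663 and 669 CPM in co-cultured LSECs, against 1541, 1333 and 1335 CPM in LSECs alone (log2 -0.99, adjusted p = 0.0385). Ccng2, an atypical cyclin, was 1.97-fold higher (adjusted p = 0.0463). Ak4, a mitochondrial adenylate kinase, had 14.5 ± 1.28 CPM in co-cultured LSECs and 8.96 ± 0.894 CPM in LSECs alone. Hk3, the hexokinase of myeloid cells, had 26.7 ± 3.89 and 42.2 ± 2.40 CPM. Both passed with the block (adjusted p = 0.000806 and 0.000103) and not in the unblocked fit of all libraries. Bhlhe40 fell in LSECs with the block, to 21.9 ± 3.35 CPM in co-culture against 34.6 ± 6.26 CPM alone, and its co-culture effect was lower in LSECs than in Hepa1-6 cells without the block too (log2 -1.06 ± 0.20 SE, adjusted p = 0.0211).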

How the data were processed

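Per the labels' protocols, polyadenylated RNA from 1 μg of total RNA was sequenced as stranded paired-end libraries. Per the submitters' processing notes, the authors used HISAT2 and StringTie on mm10, with no version or strand setting given in the sources used here. The deposited gene-level file gives estimated counts (expected counts, all whole numbers), TPM and FPKM by the authors, per the file headers, and FPKM was not used. The first cell named in a co-culture title was taken as the cell sequenced. Counts were fitted with edgeR 4.0.16 in R 4.3.3 (filterByExpr, TMM, robust quasi-likelihood F-test, Benjamini-Hochberg over all genes, 0.05), each comparison on its own 6 libraries and the difference between cells on all 12. CPM values share 1 TMM scale. SEs come from the F statistic. Depth of 32761492 to 48870698 counts limits precision by counting error only. Same-numbered LSEC libraries deviated together from their group means (r = 0.854, 0.593 and 0.631). Replicates 2 and 3 correlated as strongly across numbers (0.659 and 0.600). The correlations thus show that replicate 1 stood apart in both LSEC groups. They cannot show whether replicates 2 and 3 form pairs, so blocked values are given beside unblocked ones. Hepa1-6 numbers did not pair (0.057, -0.015 and -0.025). Reads of Pgk1, Pgam1 and Eno1 may be shared with retrogenes, so their values are uncertain. The members, lists and the rule for named genes (smallest p per comparison) were chosen with earlier results of these data known. Alternatives were DESeq2 1.42.0, limma 3.58.1 on log2(TPM + pseudocount of 1 or 0.1), no filter, a joint fit and omitted libraries.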

Additional observations from a re-analysis of the deposited data

Results flagged for a closer look

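The co-culture effect differed between LSECs and Hepa1-6 cells in 11 of the 38 members (28.9%), against 17.3% of all 17346 genes. The difference itself was tested, on all 12 libraries with the replicate block (edgeR, adjusted p under 0.05). Of all genes, 9.36% had a higher and 7.98% a lower effect in LSECs. Without the block 0 of the 11 members passed, against 2.35% of all genes. Differences are LSEC effect minus Hepa1-6 effect, on the log2 scale. A larger effect in LSECs was found for Hif1a (0.74), Pdk1 (0.63), Hk2 (0.59), Tpi1 (0.33) and Pfkl (0.21). A lower effect in LSECs was found for Hk1 (-0.25), Higd1a (-0.36), P4ha2 (-0.45), Pfkp (-0.51), Ankrd37 (-0.80) and Aldoc (-2.08). Adjusted p ran between 8.43e-05 for Pdk1 and 0.0385 for Ankrd37. Aldoc rests on at most 18 counts in a library of co-cultured LSECs. Without the first library of each group Hk2, Pdk1, Hif1a, Tpi1, Hk1, P4ha2, Pfkp and Aldoc passed, and Pfkl (adjusted p = 0.112), Higd1a (0.0998) and Ankrd37 (0.0518) did not.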

How the results depend on the processing

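Counts of members past the threshold were 19 in Hepa1-6 cells, 0 in LSECs, 24 between the cells alone and 0 for the difference between the cells. The Hepa1-6 count was 20 with the replicate block, 1 in the joint fit of all 12 libraries and 12 without the first library of each group, and 16 to 22 when 1 library was left out. The LSEC count was 7 by the DESeq2 Wald test, 17 with the replicate block, 7 in the joint fit, 20 without the first libraries and 0 to 1 with 1 library left out. The count between the cells alone was 23 to 32 with 1 library left out, 32 without replicate 1 of LSECs alone, and kept within 1.5 times throughout. The difference between the cells gave 5 by DESeq2, 1 by limma with either pseudocount, 11 with the replicate block, 12 without the first libraries and 0 to 2 with 1 library left out. No member changed sign past a threshold. Over all genes, the Hepa1-6 count of 2298 became 1287 by limma (864 higher, 423 lower, against 1258 and 1040), 41 in the joint fit and 1215 without the first libraries. The LSEC count of 471 became 1301 by DESeq2, 5082 with the block, 1443 in the joint fit, 5559 without the first libraries and 146 to 490 with 1 library left out. The difference count of 408 became 1215 by DESeq2, 828 or 635 by limma, 3008 with the block, 2694 without the first libraries and 216 to 726 with 1 library left out. Where 1 library was left out, its group had 2 libraries. The cause of these shifts was not tested. Depth limits Car9, Stc2 and, in LSECs, Aldoc and Eno2.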

Other observations

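Pkm makes a muscle-type and an embryonic-type pyruvate kinase by alternative splicing. The deposited transcript named variant 2 supplied 71.9% ± 34.4 of Pkm TPM in co-cultured Hepa1-6 cells and 67.6% ± 22.9 in Hepa1-6 cells alone, and 51.4% ± 13.8 in co-cultured LSECs and 49.9% ± 29.6 in LSECs alone (SD in percentage points, n = 3 each). Variant 1 supplied 10.5% ± 4.63 in co-cultured Hepa1-6 cells and 17.2% ± 10.2 in Hepa1-6 cells alone, and 29.7% ± 2.18 in co-cultured LSECs and 23.7% ± 15.1 in LSECs alone. For both transcripts the libraries of co-culture and cells alone overlapped in both cells, and no test was run.

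Retrogenes and pseudogenes whose descriptions name a member's product carried counts of their own. How alike their sequences are was not tested. Across the 12 libraries those of Pgam1 added up to 35.1% to 55.1% of the counts of Pgam1 itself, those of Pgk1 to 6.67% to 11.3% and that of Eno1 to 2.98% to 4.78%. For Gapdh, Aldoa, Tpi1 and Ldha the share stayed below 0.05%.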
